A study of Mus musculus with 18 samples.

Results

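*Fibcd1* and 4 other genes on mouse chromosome 2, *Trub2*, *Cercam*, *Sptan1* and *Strbp*, are described here in cultured hippocampal neurons of *Fibcd1* WT and KO mice. The genes were chosen from the measured values themselves: they are *Fibcd1* and every other gene within 6 Mb of it that passed the test between KO_CSPG and WT_CSPG cultures (adjusted p under 0.05 in limma). They make up 5 of the 146 genes of the deposited table in that window and 5 of its 12012 genes in all. Because the same comparison chose them, their levels and changes are given as a description and without a p-value.

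The cultures were made from the hippocampi of E18.5 pups and plated on coverslips coated with chondroitin sulphate proteoglycans (CSPGs), the sugar-bearing proteins of the brain's extracellular matrix. WT_CSPG and KO_CSPG both carry this coating and differ in the *Fibcd1* genotype, which is wild type in the former and fibcd1 -/- in the latter, with the allele Fibcd1tm1Lex bred on C57BL/6J. The allele acts in the whole body and each replicate is a preparation of cells. The time in culture was 3 or 2 days, since the sources differ. Of the 18 libraries that the series labels, the table holds WT_CSPG replicates A to D and KO_CSPG replicates A to D, and the other libraries were not analysed here. The litter, sex and preparation date of each library are not given, so the comparison measures the spread between these preparations.

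FIBCD1 is a membrane protein with a fibrinogen-like domain outside the cell, which binds acetylated sugars such as chitin and the chondroitin sulphate chains of CSPGs. The other proteins have known roles elsewhere in the cell. TRUB2 changes uridines to pseudouridines in mitochondrial RNA, CERCAM is a cell adhesion protein related in sequence to the enzymes that add galactose to collagen, SPTAN1 is the alpha-II spectrin of the membrane skeleton of axons and dendrites, and STRBP binds double-stranded RNA and microtubules.

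The start regions of 3 of the genes are shown because these had the largest changes, and that of *Coq4* because its exons overlap those of *Trub2*. Each is the RefSeq window (GRCm38.p6) of 250 bases before to 50 bases after the gene's start, written 5′ to 3′ on the gene's own strand, and capitals mark GC boxes (GGGCGG, or CCGCCC on the other strand). *Fibcd1* lies at chr2:31845956-31846255 (minus strand), *Trub2* at chr2:29787622-29787921 (minus), *Cercam* at chr2:29869244-29869543 (plus) and *Coq4* at chr2:29787243-29787542 (plus).
Fibcd1: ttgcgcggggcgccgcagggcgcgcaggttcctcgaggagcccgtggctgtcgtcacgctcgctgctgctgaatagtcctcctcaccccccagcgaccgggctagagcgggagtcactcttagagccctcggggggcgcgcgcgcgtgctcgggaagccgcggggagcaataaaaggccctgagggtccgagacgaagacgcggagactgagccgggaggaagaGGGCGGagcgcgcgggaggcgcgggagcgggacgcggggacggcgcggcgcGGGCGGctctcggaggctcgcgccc
Trub2: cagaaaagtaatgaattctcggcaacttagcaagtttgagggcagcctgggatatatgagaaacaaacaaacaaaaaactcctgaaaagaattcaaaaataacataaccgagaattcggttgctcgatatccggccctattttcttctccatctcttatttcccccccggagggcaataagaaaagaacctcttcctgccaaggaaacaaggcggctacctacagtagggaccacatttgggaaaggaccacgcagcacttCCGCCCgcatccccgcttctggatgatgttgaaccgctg
Cercam: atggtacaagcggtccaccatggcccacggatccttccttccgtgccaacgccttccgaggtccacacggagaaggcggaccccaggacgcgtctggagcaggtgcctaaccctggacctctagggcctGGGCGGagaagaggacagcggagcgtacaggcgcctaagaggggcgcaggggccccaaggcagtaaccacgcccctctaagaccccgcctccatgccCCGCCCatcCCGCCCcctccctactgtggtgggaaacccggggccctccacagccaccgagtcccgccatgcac
Coq4: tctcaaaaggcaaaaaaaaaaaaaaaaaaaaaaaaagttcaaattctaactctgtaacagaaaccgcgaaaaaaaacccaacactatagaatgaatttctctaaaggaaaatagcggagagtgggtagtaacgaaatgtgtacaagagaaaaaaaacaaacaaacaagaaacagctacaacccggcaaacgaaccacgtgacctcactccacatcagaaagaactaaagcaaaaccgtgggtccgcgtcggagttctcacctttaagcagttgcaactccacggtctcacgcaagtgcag

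All 5 genes matched a RefSeq window, and the windows differed widely in composition. That of *Fibcd1* had 74.3% G and C, 46 CpG pairs and 2 GC boxes. The *Trub2* window had 46.7%, 12 CpG pairs and 1 GC box, and the *Cercam* window had 68.0%, 21 and 3. For *Sptan1* the values were 73.3%, 37 and 5. *Strbp* has 2 listed starts, one with 53.0% G and C and no GC box and one with 79.7% and 2 GC boxes. *Coq4* had 39.7% and no GC box. Over the 32851 windows of the same length the median was 52.7% G and C and 7 CpG pairs, and 35.7% held a GC box on either strand. The letters CCAAT (or ATTGG) occurred in 1 window of the 5 genes, the GC-rich one of *Strbp*, against 37.4% of all windows. TATAAA (or TTTATA) occurred in none of them, against 13.6% of all windows. These letter matches describe the sequence only.

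The deposited values are normalized counts: each library's reads per gene after division by that library's size factor. Reads over the table's genes ranged from 10099564 to 11174615 in WT_CSPG and from 10541445 to 11647202 in KO_CSPG. All 8 neuronal marker genes were in the table, with summed normalized counts of 58787 to 61712 in WT_CSPG and 60159 to 60955 in KO_CSPG, and the 6 astrocyte markers summed to 28355 to 34303 and 32185 to 36746, so astrocyte markers were present beside the neuronal ones. The 7 oligodendrocyte lineage markers summed to 1038 to 1346 in WT_CSPG and 1652 to 1818 in KO_CSPG, and 2 of them passed the test as higher in KO_CSPG, *Olig1* (log2 fold change 0.59, SE 0.06, adjusted p = 2.33e-07, limma) and *Olig2* (0.79, SE 0.08, adjusted p = 1.20e-06, limma). Microglia (3 of 6 markers in the table, sums of 663 to 778 and 714 to 860) and fibroblast and mural markers (5 of 7, 431 to 752 and 553 to 1209) had 0 genes past the limma test, with 2 and 1 at an unadjusted p under 0.05, and none of the 5 endothelial markers was in the table. WT_CSPG replicate D stood apart in choroid plexus markers, of which 3 of 7 were in the table: their sum was 3999 there, against 162 in the lowest WT_CSPG library and 209 to 527 in KO_CSPG, and 3529 of the 3999 was *Ttr*, the transthyretin gene. The summed value of 4 Y-linked genes was 1557 to 1935 in WT_CSPG and 878 to 1092 in KO_CSPG, and *Xist* was 3912 to 5082 and 6375 to 8324, so genotype and the mix of sexes in the cultures cannot be told apart in these libraries. In whole cultures, fewer cells that use a gene and less RNA per cell cannot be told apart either.

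*Fibcd1* itself (ENSMUSG00000026841, chr2:31813290-31846005, minus strand, 7 exons) was near 0 in KO_CSPG. Its normalized counts were 54.3, 70.4, 60.1 and 182 in WT_CSPG A to D. In KO_CSPG A to D they were 0.970, 0.932, 7.16 and 4.74. The groups did not overlap, and the lowest WT_CSPG library lay 47.2 normalized counts above the highest KO_CSPG library. Groups without overlap occurred for 9.22% of all genes, and the 5 genes described were chosen on this comparison. WT_CSPG D was far above the other WT_CSPG libraries, and KO_CSPG C and D were above A and B. The means were 91.8 ± 60.8 (SD, n = 4) and 3.45 ± 3.05 (SD, n = 4), so that KO_CSPG held 3.76% of the WT_CSPG level, and the log2 fold change was -4.48 (SE 0.58). This was the change of rank 2 in size among the 12012 genes. The ranked genes all have a mean of at least 40.7 over the 8 libraries, which *Fibcd1* reached through WT_CSPG alone. Replicate D, at 182, was the largest part of that WT_CSPG level. Genes as low in KO_CSPG with lower WT_CSPG levels are therefore not ranked.

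The *Fibcd1* values rest on few reads. KO_CSPG A and B had 1 read each, and C and D had 7 and 5, against 52, 65, 62 and 179 in WT_CSPG A to D. Summed over the libraries, this was 14 of 44720130 reads in KO_CSPG (exact Poisson 95% interval 7.65 to 23.5 reads) and 358 of 42364156 in WT_CSPG (322 to 397 reads). The intervals cover counting error only. Counting alone would give an SD of 9.71 normalized counts in WT_CSPG, against the 60.8 measured. Without WT_CSPG D, the WT_CSPG mean was 61.6 ± 8.13 (SD, n = 3), KO_CSPG held 5.60% of it, and the log2 fold change was -4.09. That library was also the one with the highest *Ttr*: *Ttr* was 331, 953, 11.6 and 3529 in WT_CSPG A to D, and the part of choroid plexus RNA in the *Fibcd1* value was not tested. Which exons the allele removes is not stated in the sources used here, and all 50-base stretches of the *Fibcd1* transcript are unique among the annotated transcripts, so the reads left in KO_CSPG are counted on the gene as annotated.

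*Trub2* (ENSMUSG00000039826, chr2:29761224-29788502, minus strand, 8 exons) was higher in KO_CSPG, with the largest change in the window after *Fibcd1*. It lies 2.03 Mb from *Fibcd1* on the side of lower coordinates. Its normalized counts were 322, 347, 347 and 345 in WT_CSPG A to D. In KO_CSPG A to D they were 497, 457, 489 and 478. Every KO_CSPG library was above every WT_CSPG library, by at least 110 normalized counts. The mean rose from 340 ± 12.3 to 480 ± 17.5 (SD, n = 4 each), or 1.41 times, with a log2 fold change of 0.50 (SE 0.06). Counting alone would give SDs of 18.7 and 21.6.

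The exons of *Trub2* share 921 bases, 14.6% of its own exonic length and 27.1% of that of *Coq4*, with *Coq4* on the opposite strand. *Coq4* encodes a protein of ubiquinone synthesis in mitochondria, and its RefSeq start lies within *Trub2*, 178 bases from the *Trub2* start. Of the 50-base stretches of *Trub2* transcripts, 84.6% occur in no other gene. Whether the library kit kept the strand is not stated in the sources used here, so reads in the overlap cannot be told apart by gene. *Coq4* averaged 142 normalized counts in WT_CSPG and 130 in KO_CSPG (log2 fold change -0.12, SE 0.09, adjusted p = 0.575, limma). The *Trub2* difference was 139.9 normalized counts, and the part of reads from the overlap in it was not tested.

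*Cercam* (ENSMUSG00000039787, chr2:29869164-29882840, plus strand, 12 exons) was lower in KO_CSPG. It lies 1.93 Mb from *Fibcd1*, on the same side as *Trub2*. Its normalized counts were 96.1, 79.1, 89.2 and 86.6 in WT_CSPG A to D. In KO_CSPG A to D they were 70.8, 58.7, 64.4 and 55.9. The groups did not overlap, but WT_CSPG B and KO_CSPG A lay only 8.27 apart, less than the counting SD of 9.49 in WT_CSPG. The means were 87.8 ± 7.05 and 62.5 ± 6.57 (SD, n = 4 each), so KO_CSPG held 71.2% of the WT_CSPG level, with a log2 fold change of -0.49 (SE 0.12). An antisense RNA, 2600006K01Rik, which is not in the table, shares 348 bases (10.3%) of its exons, and 91.6% of the 50-base stretches of *Cercam* are unique to it.

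*Sptan1* and *Strbp* had small changes at high levels. *Sptan1* (ENSMUSG00000057738, chr2:29965560-30031451, plus strand, 57 exons) lies 1.78 Mb from *Fibcd1*. Its normalized counts were 15048, 16153, 15735 and 15079 in WT_CSPG A to D and 13551, 14608, 13709 and 14833 in KO_CSPG A to D. All KO_CSPG libraries were below all WT_CSPG libraries, with 215 between the nearest 2. The means were 15504 ± 536 and 14175 ± 640 (SD, n = 4 each), or 91.4%, and the log2 fold change was -0.13 (SE 0.03). *Strbp* (ENSMUSG00000026915, chr2:37483228-37703859, minus strand, 17 exons) lies 5.64 Mb away on the other side. Its normalized counts were 2387, 2445, 2345 and 2490 in WT_CSPG A to D and 2528, 2656, 2653 and 2641 in KO_CSPG A to D. The groups again did not overlap, with a gap of 38.2, which is below the counting SD of 49.8 in WT_CSPG. The mean rose from 2417 ± 63.7 to 2620 ± 61.5 (SD, n = 4 each), or 1.08 times, and the log2 fold change was 0.12 (SE 0.03). In size of change these genes were ranks 16 and 24 of the 146 in the window and 2404 and 2821 of all genes, whereas *Trub2* and *Cercam* were ranks 2 and 3 in the window and 77 and 80 of all.

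**Figure D1:**
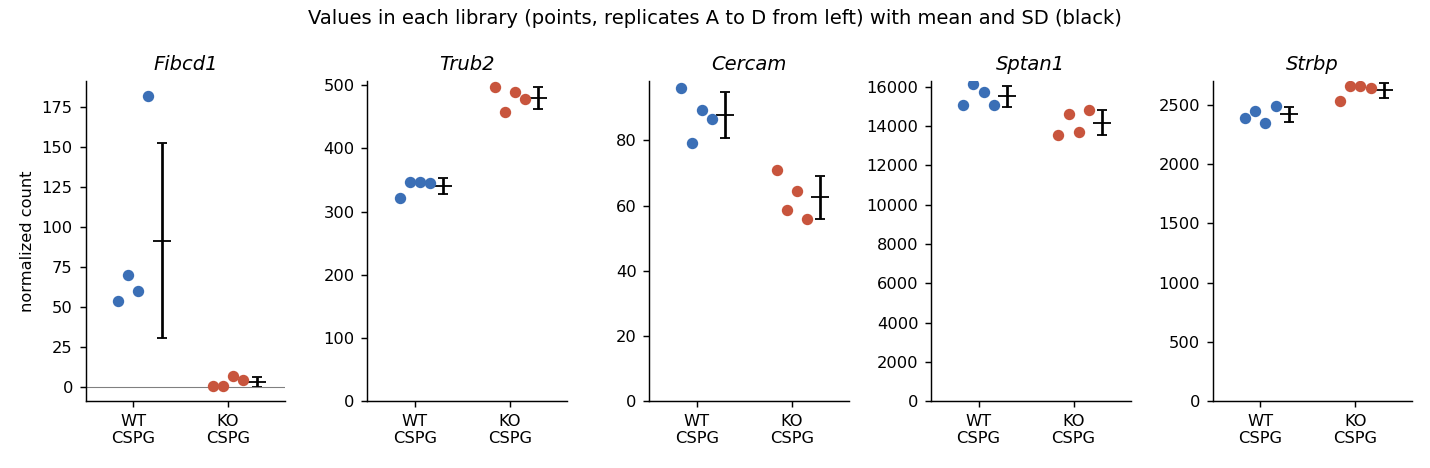
Normalized counts (vertical axes, each from 0) of the 5 genes in WT_CSPG (blue) and KO_CSPG (red), one point per library, with mean and SD in black (n = 4). The groups do not overlap for any of the 5 genes, which were chosen on this same comparison. Over all 12012 genes, 9.22% have groups that do not overlap. WT_CSPG D stands apart for Fibcd1 at 182.

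Per kilobase of annotated exons the order of levels in WT_CSPG was *Sptan1*, *Strbp*, *Trub2*, *Cercam* and *Fibcd1*. This length pools the exons of all annotated transcripts of a gene, from 1 for *Fibcd1* to 10 for *Trub2* and 16 for *Sptan1*. It can exceed the length of the transcripts in use, so the order is not one per transcript. *Sptan1* had 1160 ± 40.1 normalized counts per kb (SD, n = 4), and *Strbp* had 130 ± 3.42. *Trub2* had 53.9 ± 1.95, *Cercam* 25.9 ± 2.09 and *Fibcd1* 19.3 ± 12.8. The values of *Cercam* and *Fibcd1* overlapped in WT_CSPG through replicate D alone: in A to C, *Fibcd1* had 11.4 to 14.8 per kb (13.0 ± 1.71, SD, n = 3) and *Cercam* 23.4 to 28.4 (26.1 ± 2.54, SD, n = 3). The other neighbours in this order lay apart by more than their SDs. In KO_CSPG the order was the same, with 1061 ± 47.9, 141 ± 3.30, 76.0 ± 2.77, 18.5 ± 1.94 and 0.726 ± 0.642 normalized counts per kb.

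When the summed Y-linked value entered the fit as a covariate, the change on the log2 scale was -0.03 for *Cercam*, -0.30 for *Sptan1*, 0.01 for *Strbp*, 0.53 for *Trub2* and -3.68 for *Fibcd1*. That sum does not overlap between the groups, so it and the genotype cannot be told apart in this fit. No sign changed in any fit run. With a pseudocount of 10 the log2 fold change of *Fibcd1* was -2.79.

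Among all 12012 genes, 346 passed the test, a background of 2.88%. Of these, 131 were higher in KO_CSPG (1.09%) and 215 were lower (1.79%), and with upper-quartile scaling the split was 182 and 178. The groups did not overlap for 1108 genes (9.22%). In the 6 Mb window the 5 genes described here are 5 of 146, or 3.42%, with 2 higher and 3 lower. This share is what the choice of genes fixes, and it is near the background.

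The log2 fold changes of the other 141 genes of the window ranged from -0.29 to 0.36, with a median of 0.00. Their median size regardless of sign was 0.060, against 0.058 over all genes, and 12 of them changed by more than *Sptan1* did. None of the 141 passed the limma test, which follows from the choice of the 5. An unadjusted p under 0.05 was found for 14 of the 141, and for 16.2% of all genes (1943 of 12012). The groups did not overlap for 15 of the 146 genes of the window, namely the 5 described, which were chosen on this comparison, and 10 others. Those 10 are 7.09% of the 141, against 9.22% of all genes. Within 3 Mb there were 86 genes, of which 4 passed, and within 10 Mb there were 200, of which 6 passed. Both counts include genes described here, which the choice fixed, so they are not set against the background of 2.88%. With the described genes left out, 0 of 82 passed within 3 Mb and 1 of 195 within 10 Mb. The gene added by the wider window was *Lhx2*, a homeobox transcription factor of the developing forebrain, 6.49 Mb from *Fibcd1* and so just outside the limit, with a mean of 2221 in WT_CSPG and 1964 in KO_CSPG (log2 fold change -0.18, SE 0.04). *Strbp* was the one just inside it.

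**Figure D2:**
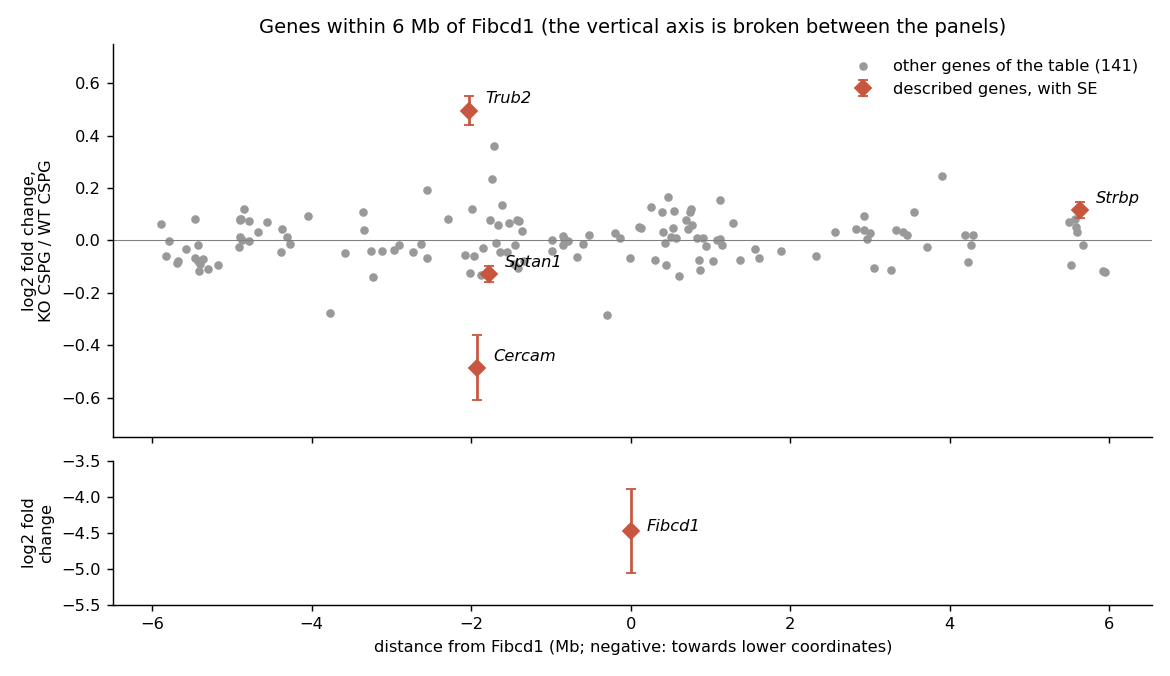
Log2 fold change (vertical axis, broken between the panels) against distance from Fibcd1 in Mb for the 146 genes within 6 Mb. The 5 genes described (red, with SE) run from -4.48 to 0.50, and the other 141 (grey) lie between -0.29 and 0.36.

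The 5 genes closest to *Fibcd1* on each side did not pass the limma test, with adjusted p-values from 0.226 to 0.972. *Abl1*, which encodes a tyrosine kinase, lies 9.1 kb away and had a log2 fold change of -0.07. On the same side of lower coordinates as *Trub2*, the values were 0.01 for *Exosc2*, a subunit of the RNA exosome, 0.03 for *Fubp3* and 0.02 for *Ncs1*. *Ass1*, argininosuccinate synthase of the urea cycle, at 293 kb, had 77.0 ± 8.80 in WT_CSPG and 63.7 ± 12.9 in KO_CSPG (SD, n = 4 each). Its log2 fold change of -0.29 (SE 0.14) was the lowest of the 141 and did not pass (adjusted p = 0.341, limma). On the other side, *Aif1l* had 0.05, *Nup214* of the nuclear pore 0.05, *Plpp7* 0.13, *Prrc2b* -0.08 and *Pomt1*, an enzyme of protein mannosylation, 0.11.

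*Trub2*, *Cercam* and *Sptan1* lie within 270 kb of each other and moved in different directions. The stretch from *Trub2* to *Sptan1* holds 8 genes of the table, and the order along the chromosome is *Trub2*, *Coq4*, *Slc27a4*, *Urm1*, *Cercam*, *Odf2*, *Gle1* and *Sptan1*. Of the 5 that are not members, none passed the limma test and 2 had an unadjusted p under 0.05 (16.2% of all genes). One was *Slc27a4*, a fatty acid transporter, with 1157 ± 36.9 and 1257 ± 28.4 (log2 fold change 0.12, SE 0.04, adjusted p = 0.0946, limma). The other was *Odf2*, a centrosome protein gene, with 1330 ± 14.4 and 1215 ± 61.8 (-0.13, SE 0.04, adjusted p = 0.0708, limma). The groups did not overlap for either of these (9.22% of all genes). A stretch with 5 such genes is too short to be set against the shares over all genes. For *Coq4*, *Urm1* (log2 fold change -0.06) and *Gle1* (-0.03) the groups overlapped.

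**Figure D3:**
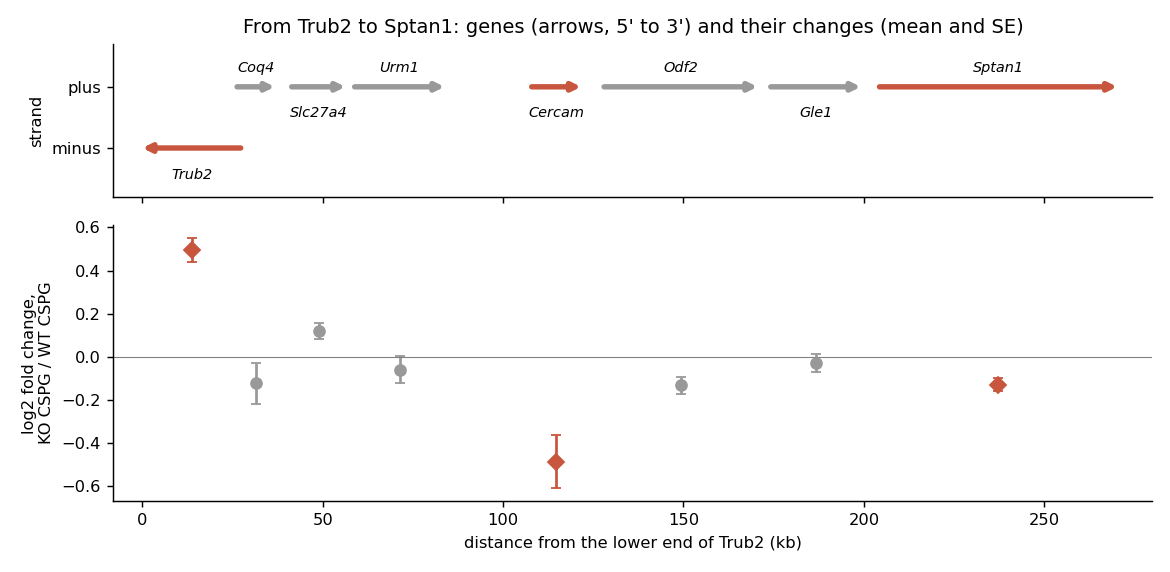
Upper panel: the 8 genes of the 270 kb stretch as arrows on their strands. Lower panel: their log2 fold changes with SE against distance from the lower end of Trub2 in kb, with 0.50 for Trub2 at the left, -0.49 for Cercam and -0.13 for Sptan1 at the right.

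The nearest genes of the other members differed in sign from them or had smaller changes. *Rapgef1*, which lies beside *Trub2*, had a log2 fold change of -0.06, against 0.50 for *Trub2*. *Wdr34*, whose end lies 94 bases from *Sptan1*, had 0.08, against -0.13. Next to *Strbp* (0.12), *Zbtb6* had 0.08 with no overlap between the groups and *Crb2* had -0.12. *Rabgap1* and *Gpr21*, which overlap the body of *Strbp* on the opposite strand, had 0.03 and -0.02, and *Rabgap1* shares 118 exonic bases with it (0.634% of *Strbp* exons). These 6 neighbours did not pass the limma test, with adjusted p-values from 0.349 to 0.959.

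Within the groups, the 5 genes had correlations of either sign. Deviations from the group mean on the log2 scale were correlated between genes over the 8 libraries, which share depth and composition. The values are a description, and most rest on single libraries: ranges below are those with 1 library left out. *Cercam* and *Sptan1* went in opposite directions (Pearson r = -0.89, range -0.96 to -0.84): *Cercam* was high in WT_CSPG A and KO_CSPG A, where *Sptan1* was low. *Cercam* and *Strbp* had r = -0.65 (-0.75 to -0.38, the last without KO_CSPG A), and *Fibcd1* and *Strbp* had 0.64 (0.47 to 0.90). For *Trub2* no pair gave a stable value: r was 0.33 with *Fibcd1* (0.06 to 0.67) and 0.08 with *Cercam* (-0.32 to 0.67). With *Sptan1* it was -0.18 (-0.64 to 0.07) and with *Strbp* -0.18 (-0.50 to 0.18). The libraries whose removal moved the *Trub2* values furthest were WT_CSPG A, KO_CSPG A and KO_CSPG B. For *Fibcd1* with *Cercam* (-0.28, range -0.48 to 0.02), *Fibcd1* with *Sptan1* (-0.12, -0.46 to 0.14) and *Sptan1* with *Strbp* (0.26, -0.14 to 0.56) the sign also depended on single libraries. The genes with the most similar deviations were *Bex1* (r = 0.97) for *Fibcd1*, *Csdc2* (0.97) for *Trub2*, *Gstcd* (0.97) for *Cercam*, *Gcn1l1* (0.98) for *Sptan1* and *Mdn1* (0.99) for *Strbp*. The next most similar were *Rps21* and *Ccdc9*, *Cox5b* and *Csf2ra*, *Myef2* and *Nefl*, *Doc2a* and *Pcdhga11*, and *Gria1* and *Trpc1*, in the same order. Each was picked as the highest of 12011 values over only 8 libraries.

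**Figure D4:**
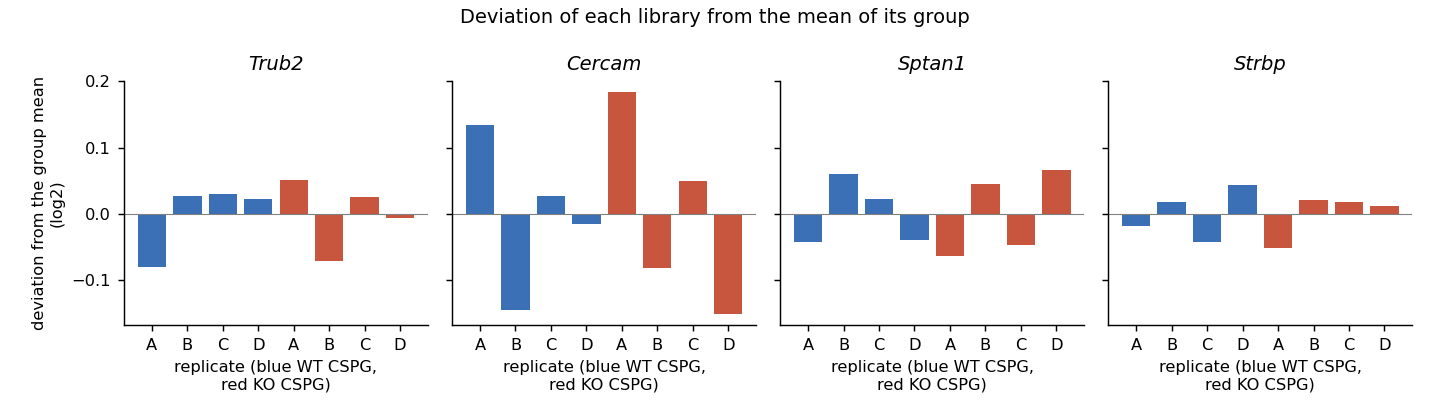
Deviation of each library from its group mean (vertical axis, log2) for Trub2, Cercam, Sptan1 and Strbp, with WT_CSPG in blue and KO_CSPG in red. Cercam and Sptan1 deviate in opposite directions (r = -0.89 over 8 libraries).

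Genes related to the 5 in function were listed from textbook knowledge, 88 in all, of which 68 were in the table. Of the 68, 2 passed the limma test (background 2.88%), 1 higher and 1 lower, 7 had an unadjusted p under 0.05 (10.3%, against 16.2% of all genes), and the groups did not overlap for 8 (11.8%, against 9.22%). The lists are short, so a count of 0 in one of them is near this background. The relatives of *Fibcd1* were genes with a fibrinogen-like domain, to which 3 fibrillin genes without that domain had been added. Of 24 listed, 9 were in the table and 0 passed the limma test, also with 0 at an unadjusted p under 0.05 (median log2 fold change -0.00). The highest were the matrix genes *Tnc*, with 2242 in WT_CSPG and 1825 in KO_CSPG (-0.28, adjusted p = 0.319, limma), and *Tnr*, with 1008 and 1039 (0.04).

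*Trub2* had 2 lists. Of 12 pseudouridine synthases 10 were in the table and 0 passed the limma test, with 0 at an unadjusted p under 0.05. Their log2 fold changes ran from -0.12 to 0.11 with a median of 0.04. *Pus7* had 434 and 447 normalized counts (0.05) and *Dkc1*, the synthase of ribosomal RNA and telomerase RNA complexes, had 441 and 436 (-0.01). Of 10 listed proteins of the mitochondrial RNA granule, where TRUB2 works, all 10 were in the table, 0 passed the limma test and 1 had an unadjusted p under 0.05. Their log2 fold changes ran from -0.21 to 0.14 with a median of 0.03, with 1517 and 1509 for *Dhx30* (-0.01) and 1131 and 1130 for *Grsf1* (-0.00).

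The 5 enzymes that make or glycosylate collagen hydroxylysines, listed for *Cercam*, were all in the table and had 0 genes past the limma test and 1 at an unadjusted p under 0.05, with a median of 0.03. *Colgalt1*, which transfers galactose, had 961 and 993 (0.05), and *Plod3* had 521 and 531 (0.03). *Plod2*, a lysyl hydroxylase named here after its values were seen, had 346 ± 10.2 and 299.8 ± 16.3 with no overlap between the groups (-0.21, SE 0.06, adjusted p = 0.0723, limma). Of the 16 of 17 listed genes for double-stranded RNA binding, the group of *Strbp*, 0 passed the limma test and 3 had an unadjusted p under 0.05, with a median of 0.01. The highest were the helicase gene *Dhx9*, with 4591 and 4251 (-0.11, adjusted p = 0.0571, limma), and *Zfr*, with 3163 and 3243 (0.04). *Adarb2*, named here after its values were seen, had the largest change of the list, with 295 ± 38.3 and 354 ± 10.2 (0.27, SE 0.08, adjusted p = 0.0510, limma). The groups did not overlap for 4 of the 16, against 9.22% of all genes. Whether this short list differs from the background was not tested.

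In the list of the membrane skeleton, the group of *Sptan1*, 18 of 20 genes were in the table and 2 passed (background 2.88%), with a median of 0.01. Whether this list differs from the others was not tested. *Epb41l3*, a protein 4.1 that ties spectrin and actin to membrane proteins, fell from 712 ± 15.0 to 620 ± 40.7 (log2 fold change -0.20, SE 0.05, adjusted p = 0.0251, limma). *Dmtn*, which bundles actin, rose from 687 ± 57.5 to 796 ± 30.5 (0.21, SE 0.05, adjusted p = 0.0267, limma). *Sptbn1*, which encodes a beta spectrin that pairs with SPTAN1, did not pass, with 9389 and 9030 normalized counts (-0.06). Both calls were lost when the variance prior had no trend, with the Y-linked sum as a covariate, and without WT_CSPG A, WT_CSPG C or KO_CSPG A. That of *Epb41l3* was also lost without KO_CSPG B, and that of *Dmtn* without KO_CSPG C or D.

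**Figure D5:**
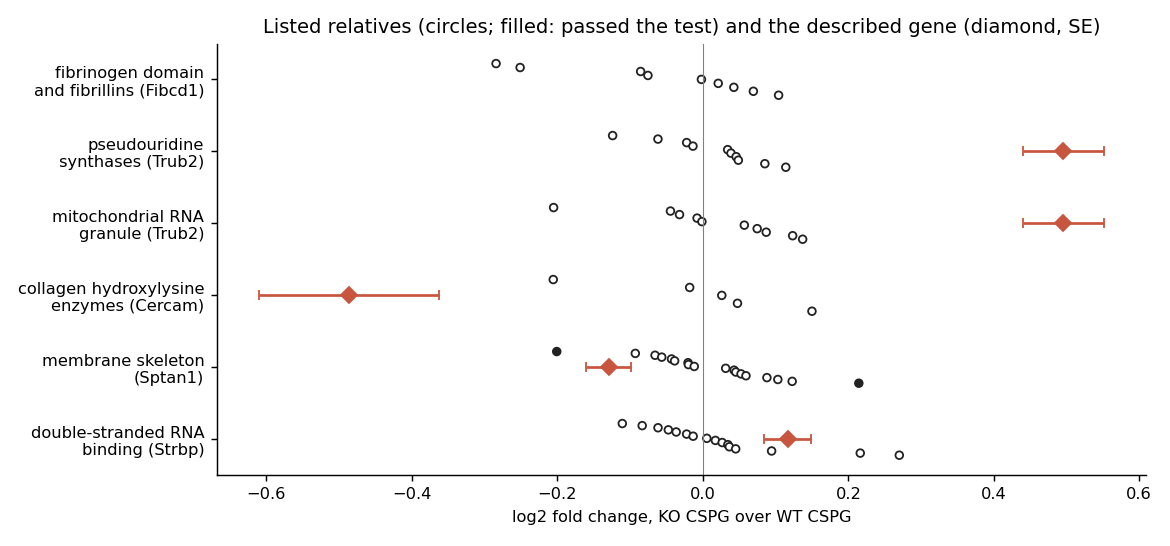
Log2 fold change (horizontal axis) of the listed relatives in the table (circles, filled where they passed the test) and of the gene they were listed for (red diamond, with SE; Fibcd1, at -4.48, is beyond the axis). The relatives lie between -0.28 and 0.27. Sptan1 (-0.13) and Strbp (0.12) lie inside that range, and Trub2 (0.50) and Cercam (-0.49) lie outside it. The described genes were chosen by their change and the relatives were not, so this is no test of a difference.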

How the data were processed

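The authors sequenced poly-A RNA of the cultures as 50-base single reads on an Illumina HiSeq and used DESeq2 in Galaxy; the aligner and counting program are not given in the sources used here, and the submitters' processing notes name mm10. The values that the authors deposited are a normalized signal, in which the reads of a library are scaled by its size factor. All values were whole multiples of 1 step per library, which gave the reads. The table holds 12012 genes with means of at least 40.7, so genes used at lower levels are not covered. All its per-sample columns were used. It also gives the authors' own fold change, standard error, test score and p-values for the same comparison, which were not used.

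The plan had foreseen models for counts, which were not run on the recovered reads, since the deposited columns are normalized values. Instead, limma 3.58.1 (R 4.3.3; trend and robust) was run on log2(value + 1), with Benjamini-Hochberg adjustment over the 12012 genes. No threshold on low values was added. Of the identifiers, 11991 were found in GENCODE M21 (GRCm38). Distances, overlaps and 50-base stretches came from that annotation. Pairs of libraries within a group had a chi-square of 1.83 to 2.90 per degree of freedom, so none was a copy. On simulated data of this comparison with the 12012 genes, 83 of 100 genes changed by 0.5 (log2) and 98 of 100 changed by 1 were recovered, and 15 of 11812 unchanged genes were called. Changes well below 0.5, such as those of *Sptan1*, *Strbp*, *Epb41l3* and *Dmtn*, were not simulated, so recovery at those sizes is not known. Those of *Trub2* (0.496) and *Cercam* (-0.486) lie just under the smaller simulated size. Recovery was not split by level, so it is not known for genes as low as *Cercam*.

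The members and lists were chosen with earlier results of these data known. Named are the 5 members, the 5 nearest genes on each side of *Fibcd1*, the nearest and overlapping genes of the other members, other called genes of the region, the 3 genes most like each member in deviations, and of each list the called genes or the 2 highest. *Sptbn1*, *Lhx2*, *Olig1*, *Olig2*, *Ttr*, *Plod2* and *Adarb2* were chosen after their values were seen. Alternatives changed the pseudocount, filter, scaling, variance prior, block, covariate, window and libraries.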

Additional observations from a re-analysis of the deposited data

Results flagged for a closer look

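In 56 groups of 4 libraries (the members and named genes in each group), 5 had 1 library far from the other 3; chance flags about 1 in 20 groups, here 2.8. *Fibcd1* was 182 normalized counts in WT_CSPG D and 54.3 to 70.4 in the other WT_CSPG libraries. *Trub2* was 322 in WT_CSPG A and 345 to 347 in the others. *Strbp* was 2528 in KO_CSPG A and 2641 to 2656 in the others, so that the library nearest to WT_CSPG was the one standing apart. *Gle1*, which lies beside *Sptan1*, was 846 in KO_CSPG A and 815 to 819 in the others. *Gpr21*, inside the body of *Strbp*, was 202 in WT_CSPG D and 165 to 170.3 in the others.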

How the results depend on the processing

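Of 82 refitted values of the 5 members' changes, 22 were identical by construction (variance prior, block, filters); of the other 60, 4 moved by more than the spread between replicates, 3 of them with the Y-linked covariate, and none changed sign. Of 100 refitted correlations, 20 moved, all with 1 library left out. Leaving out 1 library at a time gave -4.87 to -4.09 for *Fibcd1*, 0.47 to 0.52 for *Trub2*, -0.55 to -0.44 for *Cercam*, -0.15 to -0.11 for *Sptan1* and 0.10 to 0.13 for *Strbp*. The 346 genes called (131 higher, 215 lower) became 80 (28 and 52) with no trend and 2 (1 and 1) with the Y-linked covariate, where 825 had an unadjusted p under 0.05. Without 1 library they ranged from 186 (without KO_CSPG A) to 576 (without WT_CSPG D), the higher from 62 to 286 and the lower from 124 to 290. Other genes of the window called rose from 0 to 1 with upper-quartile scaling, 2 with the replicate block and 1 with the 10 Mb window, and were 0 to 3 with 1 library left out. Of the listed relatives, 2 became 0 with no trend, 4 with the replicate block, 0 with the Y-linked covariate and 0 to 2 without 1 library. Without WT_CSPG A or without WT_CSPG C the count was again 2, but *Epb41l3* and *Dmtn* were not among the genes called. *Epb41l3* turned to 0.0062 with the Y-linked covariate (adjusted p = 0.996, limma). The cause of these shifts was not tested. Libraries with the same replicate letter had correlations of deviations of -0.07 for A, 0.10 for B, 0.27 for C and -0.01 for D. Libraries with different letters were not compared, so these values do not decide whether the letters pair the libraries. The replicate block gave 429 genes called. The planned models for counts were not run. Depth limits *Fibcd1* in KO_CSPG, at 1 to 7 reads.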
